A study of Mus musculus with 18 samples.

Results

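The genes described here are the enzymes that make and recycle glutathione, the glutathione peroxidases and glutathione transferases, the peroxiredoxins with their thioredoxins and thioredoxin reductases, the superoxide dismutases, catalase and Nqo1. They were picked by a rule on symbols, among rows with an Entrez gene ID, that reads no measured value, although the gene families were taken up with earlier results of these data known. The rule found 54 genes among the 52093 symbols of the files. RNA-seq had been done on 18 libraries from male wild-type C57BL/6 mice fed a high-fat diet (HFD) over 12 weeks and listed as 16 weeks old. The 3 tissues, with 6 libraries each, were adipocytes of inguinal white adipose tissue (iWAT), adipocytes of epididymal white adipose tissue (eWAT) and brown adipose tissue (BAT). White adipocytes were the floating layer after collagenase digestion, whereas BAT was whole frozen tissue, so preparation and depot cannot be told apart in any comparison with BAT. All mice were on HFD, although 1 field of the labels names regular chow, and the substrain is given in different places as C57BL/6J or C57BL/6NTac. The study made these libraries to list receptors of adipocytes, and the comparison here asks how the 3 fat depots differ in antioxidant and glutathione genes.

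Cells remove superoxide in steps: superoxide dismutases turn it into hydrogen peroxide, which catalase, glutathione peroxidases and peroxiredoxins then reduce. Glutathione peroxidases draw electrons from glutathione, and peroxiredoxins mostly from thioredoxin, and both pools are kept reduced by NADPH-dependent reductases. Glutathione transferases join glutathione to reactive lipids and foreign compounds. Many of the cytosolic genes are targets of NRF2, a transcription factor that binds the antioxidant response element (ARE), while a mitochondrial set (Sod2, Prdx3, Txn2, Txnrd2) works beside the respiratory chain that brown fat holds in large amounts.

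The 3 promoters printed here belong to genes that were higher in eWAT than in iWAT adipocytes and hold the core of the ARE, TGACNNNGC, searched on both strands from 250 bases before to 50 bases after each gene start (RefSeq, GRCm38.p6). Among the selected genes, 46 have a promoter in that set, and 8 of these 46 (17.4%) hold the core, beside 3781 of 27025 of all genes with a promoter (14.0%). The 8 did not share a direction: Gclm, Prdx1 and Txnrd1 were higher in eWAT adipocytes, while Gsta3, Gstm5, Gstm7, Mgst1 and Sod1 were higher in iWAT adipocytes (log2 fold change 0.77, 1.12, 0.61, 1.03 and 0.25). A match of these letters is a description of sequence, not a bound site. The 250 bases before the start are given 5′ to 3′ on the strand of the gene, with the match in capitals. They lie at chr4:116685349-116685598 (Prdx1), chr10:82858956-82859205 (Txnrd1) and chr3:122245307-122245556 (Gclm) of GRCm38.p6, all on the plus strand, and in all 3 the core lies on the opposite strand.
Prdx1: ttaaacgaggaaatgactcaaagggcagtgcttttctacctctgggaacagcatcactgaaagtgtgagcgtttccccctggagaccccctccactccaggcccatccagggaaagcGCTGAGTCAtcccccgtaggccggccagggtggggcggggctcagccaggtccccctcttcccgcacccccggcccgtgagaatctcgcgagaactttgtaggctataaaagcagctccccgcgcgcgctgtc
Txnrd1: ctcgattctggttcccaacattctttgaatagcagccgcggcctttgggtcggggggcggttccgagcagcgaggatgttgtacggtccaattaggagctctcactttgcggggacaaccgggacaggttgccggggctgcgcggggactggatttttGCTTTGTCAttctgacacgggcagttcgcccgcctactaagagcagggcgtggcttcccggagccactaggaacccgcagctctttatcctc
Gclm: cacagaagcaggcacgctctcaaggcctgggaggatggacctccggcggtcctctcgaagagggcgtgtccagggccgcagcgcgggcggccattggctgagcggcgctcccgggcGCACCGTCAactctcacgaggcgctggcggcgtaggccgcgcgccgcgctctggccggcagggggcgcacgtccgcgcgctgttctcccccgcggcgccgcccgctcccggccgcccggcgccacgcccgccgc

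The files gave 24655056 to 42518483 reads per library. Levels are given as RPKM, the read count divided by transcript length and by a library total that differs from these read totals. The total behind RPKM was above the read total in every white adipocyte library and below it in every BAT library. Tests were run on read counts with edgeR. Brown adipocyte markers set BAT apart, but white adipocyte markers did not set eWAT adipocytes apart from it. The summed level of 8 white adipocyte genes was 12370 to 17570 RPKM in iWAT adipocytes, 3291 to 8864 RPKM in eWAT adipocytes and 5577 to 6877 RPKM in BAT, and that of 7 brown adipocyte genes 2942 to 4309 RPKM in BAT and at most 51.0 RPKM in either white depot. The eWAT adipocyte libraries also held macrophage RNA: 10 of 10 macrophage markers were higher in eWAT than in iWAT adipocytes, with sums of 3002 to 4782 RPKM against 536.1 to 1039 RPKM, and 27.6 to 55.7 RPKM in BAT. Of the white adipocyte markers, 7 of 8 were higher in iWAT than in eWAT adipocytes, and 4 of 8 were higher and 2 lower in eWAT adipocytes than in BAT, with the sums of eWAT replicates 1 and 3 below those of all BAT libraries. Endothelial markers (187.1 to 528.9 RPKM) summed highest in iWAT adipocytes, with 6 of 6 higher there than in eWAT adipocytes. Fibroblast and progenitor markers also did (533.4 to 680.4 RPKM), but only Dpt of the 6 was called higher there than in eWAT adipocytes (476 against 85.9 RPKM). Highest in BAT were erythroid markers (810.1 to 1724 RPKM) and skeletal muscle markers (1.56 to 117.3 RPKM, lowest in BAT replicate 2). The part of these other cells in the differences below was not tested, and fewer cells of a type and less RNA per cell cannot be told apart in such libraries.

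Most of the selected genes were expressed in all 3 tissues. A mean of at least 1 RPKM was reached by 44 of 54 genes in iWAT adipocytes, 43 genes in eWAT adipocytes and 42 genes in BAT, and at least 100 RPKM by 5, 3 and 5 genes. The leading gene was Gpx1, the main cytosolic glutathione peroxidase, in both white depots (389.6 ± 47.9 RPKM in iWAT and 789 ± 112 RPKM in eWAT adipocytes, mean ± SD, n = 6), and Gpx3, a secreted glutathione peroxidase, in BAT (225 ± 29.7 RPKM). Catalase, the peroxisomal enzyme that splits hydrogen peroxide, was among the 3 highest in each tissue. Summed over the 54 genes, the level was 1900 ± 179.8 RPKM in iWAT adipocytes, 1942 ± 150.1 RPKM in eWAT adipocytes and 1491 ± 107.8 RPKM in BAT. Gpx2, Gpx2-ps1, Gpx6, Gsta2 and Gstt4 had at most 3 reads in every library and Gsta1 at most 5, so these 6 could not be tested, and Gpx5 could not be tested between iWAT adipocytes and BAT. Levels of different genes are less sure than those of 1 gene across tissues, because the transcript length behind RPKM was more than 1.5 times the longest GENCODE vM1 transcript for 21 of 53 genes, up to 5.83 times for Sod1, which lowers their RPKM. Gpx1, Gpx3 and Cat are not among the 21.

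Between the white depots, 42 of 48 genes tested passed an adjusted p of 0.05, of which 29 were higher in iWAT and 13 in eWAT adipocytes. Over all genes tested, 68.6% passed, 34.1% in the direction of iWAT and 34.5% in that of eWAT, beside 60.4% and 27.1% of the selected genes. Their median log2 fold change of iWAT over eWAT was 0.42, beside 0.0014 over all genes. A change of at least 2-fold was called for 13 genes higher in iWAT (13% of all genes) and 6 higher in eWAT (11.9%). Between iWAT adipocytes and BAT, 39 of 47 genes passed (75.3% of all genes), 16 higher in iWAT (38.1%) and 23 in BAT (37.2%), with 7 (18.2%) and 13 (19.1%) at least 2-fold. Between eWAT adipocytes and BAT, 40 of 48 genes passed (82.5%), 13 higher in eWAT (41.1%) and 27 in BAT (41.4%), with 11 (23.7%) and 17 (25.3%) at least 2-fold. Gpx5, which had reads in 3 eWAT libraries and hardly elsewhere, is in the counts for eWAT, and without it they were 12 higher in eWAT than in iWAT (5 at least 2-fold) and 12 higher than in BAT (10 at least 2-fold). Full values follow for 29 of the genes. The 3 comparisons share libraries and are not independent of each other.

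The direction of small differences against BAT hung on scaling. The counts were scaled by TMM, which sets the bulk of genes to no change, and the mean factors were 1.35 in iWAT adipocytes and 0.745 in BAT. A gene with equal RPKM in both therefore has a negative log2 fold change: Prdx2, a cytosolic peroxiredoxin abundant in red cells, had 20.3 RPKM in iWAT adipocytes and 20.4 RPKM in BAT. Its log2 fold change was -0.61 with TMM and 0.25 without it. The value without TMM departs from the equal RPKM because RPKM rests on totals other than the read totals. A value without TMM can therefore differ in sign from the RPKM. Cat had means of 155.7 RPKM in eWAT adipocytes and 170.5 RPKM in BAT, but a log2 fold change of 0.19 without TMM. The row of Prdx2 overlaps a row named LOC100504815 on the same strand over 73.2% of its span, so its count is uncertain. Without TMM the median over all genes moved to 0.87 for iWAT over BAT and 0.89 for eWAT over BAT, and the selected genes then split into 31 higher in iWAT and 10 in BAT, and into 22 higher in eWAT and 13 in BAT. Over all genes, 69.4% were then higher in iWAT and 15.5% in BAT, and 64.6% in eWAT and 20.3% in BAT. Fold changes against BAT are therefore given relative to the bulk of genes, and each sign that turned and each call that was lost or gained without TMM is named for the 29 genes. Called values that kept their sign also moved by about this shift. The same change moved the median between the white depots by 0.08.

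The genes that supply glutathione were highest in eWAT adipocytes, with the exception of glutathione synthase. Gclc, the catalytic subunit of the rate-limiting glutamate-cysteine ligase, had a lowest, median and highest value of 4.34, 5.07 and 6.102 RPKM in iWAT adipocytes, 6.202, 9.28 and 11.2 RPKM in eWAT adipocytes and 2.46, 2.74 and 3.07 RPKM in BAT. No 2 tissues overlapped. Its log2 fold change was -0.77 ± 0.12 (SE, adjusted p = 1.05e-04) for iWAT over eWAT and 1.11 ± 0.13 (SE, adjusted p = 8.20e-07) for eWAT over BAT. That of iWAT over BAT, 0.30, passed at an adjusted p of 0.00817 and not with replicates blocked by number (adjusted p = 0.0505).

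Gclm, the modifier subunit of the same enzyme, had 7.87, 8.01 and 8.99 RPKM in iWAT adipocytes, 7.64, 21.01 and 32.8 RPKM in eWAT adipocytes and 4.303, 4.95 and 5.47 RPKM in BAT. Of the 6 eWAT libraries 5 lay above all iWAT libraries and replicate 5 lay below them. The log2 fold change was -1.36 ± 0.24 (SE, adjusted p = 2.67e-04) for iWAT over eWAT and 1.53 ± 0.24 (SE, adjusted p = 2.71e-05) for eWAT over BAT, and 0.14 for iWAT over BAT, which did not pass (adjusted p = 0.0839) but did without TMM (0.998, adjusted p = 2.08e-08). Gsr, glutathione reductase, had 6.06, 6.504 and 7.38 RPKM in iWAT adipocytes, 5.32, 11.2 and 14.8 RPKM in eWAT adipocytes and 2.19, 2.56 and 2.93 RPKM in BAT, and again eWAT replicate 5 lay below the iWAT range and the other 5 above it. It was higher in eWAT than in iWAT adipocytes (log2 fold change -0.68 ± 0.19 SE, adjusted p = 0.00549) and lower in BAT than in iWAT (0.75 ± 0.07 SE, adjusted p = 1.86e-07) or eWAT adipocytes (1.46 ± 0.19 SE, adjusted p = 3.13e-06). Without eWAT replicates 1, 3 and 16, a choice made after seeing the data, Gsr did not pass between the white depots (adjusted p = 0.132).

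Gss, glutathione synthase, which adds glycine in the second step, went the other way. It had 2.45, 2.77 and 3.12 RPKM in iWAT adipocytes, 1.98, 3.42 and 4.14 RPKM in eWAT adipocytes and 4.27, 4.57 and 4.78 RPKM in BAT, and every BAT library lay above every white one. Against BAT the log2 fold change was -1.34 ± 0.09 (SE, adjusted p = 2.13e-09) for iWAT and -1.09 ± 0.14 (SE, adjusted p = 3.56e-06) for eWAT adipocytes, and the latter was -0.17 and not called without TMM (adjusted p = 0.253). The white depots did not differ past the threshold (-0.22, adjusted p = 0.188). About 13% of its exonic bases lie under other genes, Acss2 among them, which was also highest in BAT (16.3 RPKM, beside 7.67 RPKM in iWAT and 3.99 RPKM in eWAT adipocytes), so its count is uncertain.

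The cytosolic thioredoxin system followed the pattern of Gclc. Txn1, cytosolic thioredoxin, had 17.1, 19.3 and 21.95 RPKM in iWAT adipocytes, 33.8, 46.5 and 56.5 RPKM in eWAT adipocytes and 6.904, 9.51 and 10.9 RPKM in BAT. Txnrd1, the selenoenzyme that reduces it, had 10.9, 12.03 and 16.3 RPKM, 23.8, 30.7 and 40.1 RPKM and 4.95, 6.32 and 6.88 RPKM in the same order. For both genes the 3 tissues did not overlap, with eWAT highest and BAT lowest. The log2 fold change of iWAT over eWAT was -1.25 ± 0.11 (SE, adjusted p = 1.10e-06) for Txn1 and -1.296 ± 0.13 (SE, adjusted p = 2.64e-06) for Txnrd1. Against BAT, Txn1 was 0.42 in iWAT (adjusted p = 0.00113) and 1.696 in eWAT adipocytes (adjusted p = 1.37e-08), and Txnrd1 0.45 (adjusted p = 3.96e-04) and 1.77 (adjusted p = 3.06e-09).

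Prdx1, the main cytosolic peroxiredoxin, had the lowest log2 fold change of iWAT over eWAT of the 29 genes with full values. It had 31.6, 35.5 and 40.2 RPKM in iWAT adipocytes, 64.98, 165 and 285 RPKM in eWAT adipocytes and 20.2, 22.02 and 24.1 RPKM in BAT. The tissues did not overlap, although eWAT libraries spread over more than 4-fold. The log2 fold change was -2.27 ± 0.26 (SE, adjusted p = 7.01e-06) for iWAT over eWAT, which is 4.81-fold higher in eWAT, and 2.37 ± 0.26 (SE, adjusted p = 4.30e-07) for eWAT over BAT. For iWAT over BAT it was 0.08 (adjusted p = 0.453), near that of the bulk of genes, and 0.94 without TMM (adjusted p = 5.48e-08). The row lies at chr4:116358149-116373427 of mm9, and that of Txnrd1 at chr10:82296696-82360469, both on the plus strand with their exons and introns.

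Gpx1 had 356, 367 and 476 RPKM in iWAT adipocytes, 679, 748 and 956 RPKM in eWAT adipocytes and 127, 166 and 193 RPKM in BAT, with no overlap. Its log2 fold change was -1.01 ± 0.11 (SE, adjusted p = 4.93e-06) for iWAT over eWAT, 0.65 ± 0.10 (SE, adjusted p = 2.24e-05) for iWAT over BAT and 1.68 ± 0.11 (SE, adjusted p = 1.06e-09) for eWAT over BAT. Nqo1, a quinone reductase and a standard NRF2 target, was low, with 1.52, 1.74 and 2.31 RPKM in iWAT adipocytes, 0.97, 2.79 and 4.18 RPKM in eWAT adipocytes and 0.445, 0.558 and 0.679 RPKM in BAT. Every white library lay above every BAT library (log2 fold change 1.15 ± 0.15 (SE, adjusted p = 4.18e-06) for iWAT and 1.81 ± 0.29 (SE, adjusted p = 2.84e-05) for eWAT). In iWAT over eWAT it passed narrowly (-0.63, adjusted p = 0.0458) and did not pass with replicates blocked by number (adjusted p = 0.125) or without any 1 of 10 libraries, and the 2 depots overlapped. Prdx4, a peroxiredoxin of the endoplasmic reticulum, had mean levels of 5.55, 9.69 and 1.46 RPKM in iWAT, eWAT and BAT libraries.

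**Figure D1:**
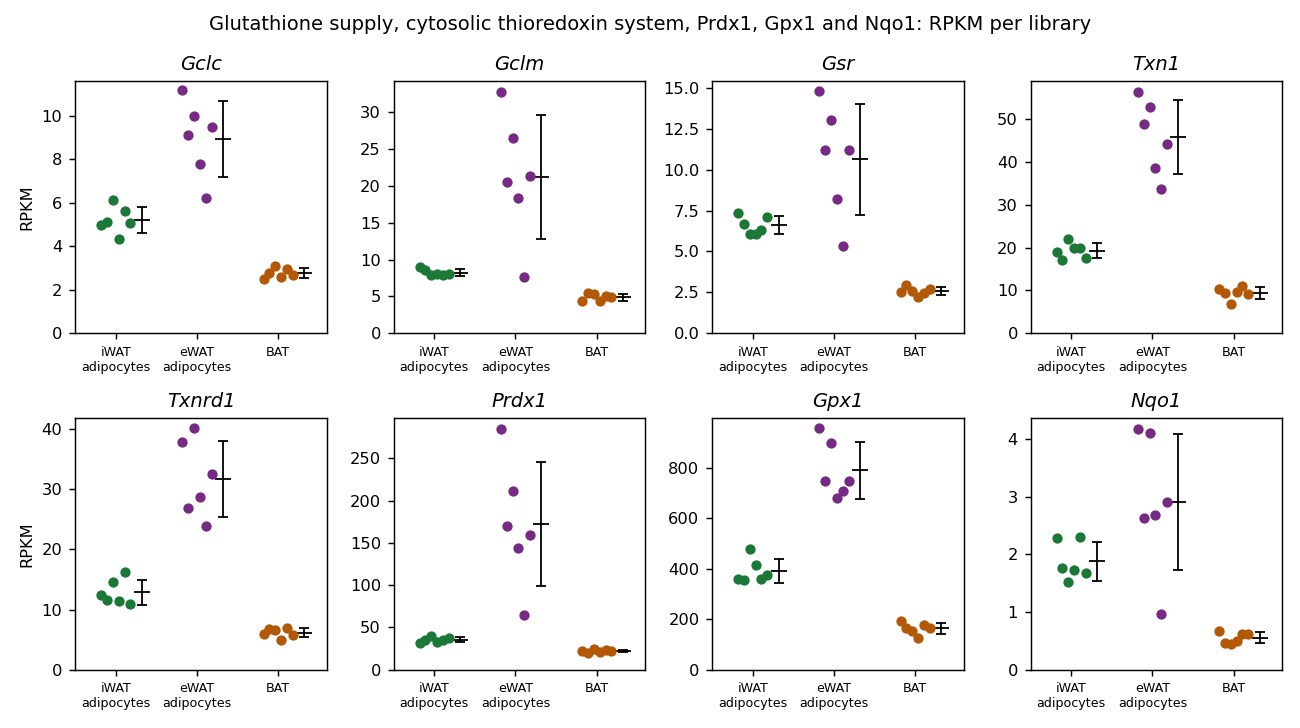
RPKM (y axis, linear from 0) of 8 genes in 6 libraries of iWAT adipocytes (green), eWAT adipocytes (purple) and BAT (brown). Points are libraries and bars are mean ± SD. In all 8 panels the mean was highest in eWAT adipocytes and lowest in BAT, and eWAT replicate 5 gave the lowest eWAT point except for Gpx1, where replicate 4 did.

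The mitochondrial set was highest in BAT. Prdx3, the mitochondrial peroxiredoxin, had 34.6, 44.6 and 49.7 RPKM in iWAT adipocytes, 25.05, 32.2 and 37.6 RPKM in eWAT adipocytes and 106, 124 and 138 RPKM in BAT. Sod2, the manganese superoxide dismutase of the matrix, had 26.7, 32.5 and 36.4 RPKM, 18.1, 25.5 and 31.7 RPKM and 75.2, 85.4 and 97.9 RPKM in the same order. For both genes each BAT library lay above each white library, and the white depots overlapped. Against BAT, the log2 fold change of Prdx3 was -2.098 ± 0.12 (SE, adjusted p = 2.29e-10) in iWAT and -2.53 ± 0.11 (SE, adjusted p = 1.48e-11) in eWAT adipocytes, and that of Sod2 -2.02 ± 0.11 (SE, adjusted p = 1.75e-10) and -2.34 ± 0.14 (SE, adjusted p = 4.35e-10).

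Txn2, mitochondrial thioredoxin, had 9.62, 10.9 and 11.4 RPKM in iWAT adipocytes, 9.303, 9.76 and 10.2 RPKM in eWAT adipocytes and 23.4, 27.5 and 30.4 RPKM in BAT. Txnrd2, its reductase, had 2.76, 3.54 and 3.79 RPKM, 2.57, 2.699 and 3.25 RPKM and 9.46, 11 and 13.02 RPKM. Again no white library reached the BAT range. The log2 fold changes against BAT were -1.95 and -2.07 for Txn2 (adjusted p = 2.31e-11 and 2.62e-12) and -2.32 and -2.59 for Txnrd2 (adjusted p = 2.50e-11 and 1.44e-12), for iWAT and eWAT adipocytes. All 8 signs of these 4 genes against BAT held without TMM. Between the white depots Prdx3 was higher in iWAT (0.46, adjusted p = 0.00293), as was Txnrd2 (0.29, adjusted p = 0.0139). Txn2 (0.15, adjusted p = 0.0495) did not pass with replicates blocked by number (adjusted p = 0.0905), without TMM (adjusted p = 0.282) or without any 1 of 9 libraries, and Sod2 did not pass (0.35, adjusted p = 0.0535).

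**Figure D2:**
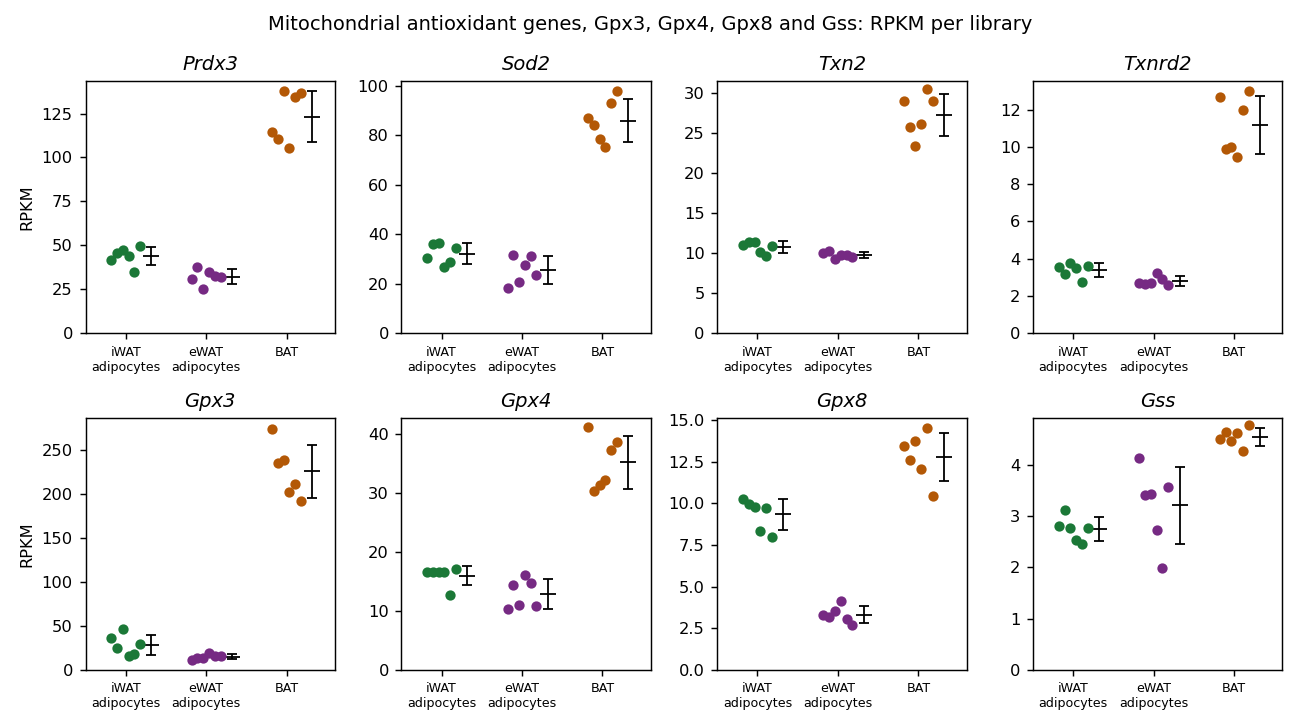
RPKM (y axis, linear from 0) of Prdx3, Sod2, Txn2, Txnrd2, Gpx3, Gpx4, Gpx8 and Gss in 6 libraries per tissue. Points are libraries and bars are mean ± SD, with iWAT adipocytes in green, eWAT adipocytes in purple and BAT in brown. BAT had the highest mean in all 8 panels, and its points lay above all white points.

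The glutathione peroxidases did not move as 1 group. Gpx3 had 15.1, 26.9 and 45.7 RPKM in iWAT adipocytes, 11.3, 14.7 and 19.3 RPKM in eWAT adipocytes and 192, 223 and 273 RPKM in BAT, and its log2 fold change against BAT was -3.61 ± 0.24 (SE, adjusted p = 2.15e-09) in iWAT and -4.52 ± 0.14 (SE, adjusted p = 4.79e-13) in eWAT adipocytes. These were the lowest values of the 29 genes with full values in both comparisons. Between the white depots it was higher in iWAT (0.92, adjusted p = 0.00423), with overlap and a 3-fold spread among iWAT libraries. Gpx4, which reduces lipid hydroperoxides in membranes, had 12.7, 16.5 and 17.1 RPKM in iWAT adipocytes, 10.3, 12.7 and 16.03 RPKM in eWAT adipocytes and 30.4, 34.8 and 41.3 RPKM in BAT. Its log2 fold change against BAT was -1.74 ± 0.11 (SE, adjusted p = 5.92e-10) in iWAT and -2.05 ± 0.13 (SE, adjusted p = 5.87e-10) in eWAT adipocytes, and that between white depots, 0.33 (adjusted p = 0.0394), did not pass with replicates blocked by number (adjusted p = 0.0595), without TMM (adjusted p = 0.0716) or without any 1 of 7 libraries.

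Gpx8, a membrane peroxidase of the endoplasmic reticulum, had 7.95, 9.76 and 10.2 RPKM in iWAT adipocytes, 2.701, 3.21 and 4.16 RPKM in eWAT adipocytes and 10.4, 13.03 and 14.6 RPKM in BAT, with no overlap. It was higher in iWAT than in eWAT adipocytes (1.51 ± 0.11 SE, adjusted p = 2.55e-07) and higher in BAT than in iWAT (-1.07 ± 0.10 SE, adjusted p = 5.49e-08) or eWAT adipocytes (-2.55 ± 0.12 SE, adjusted p = 1.80e-11). Without TMM the value for iWAT over BAT was -0.21 and was not called (adjusted p = 0.0843). Gpx7, its close relative in the same compartment, had mean levels of 8.66, 4.95 and 2.06 RPKM in iWAT, eWAT and BAT libraries, so that the order of the 3 tissues was not shared with Gpx8.

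Gpx5, a peroxidase secreted by the epididymis, was found in 3 libraries. It had 6.01 RPKM in eWAT replicate 1, 14.03 RPKM in replicate 3 and 12.5 RPKM in replicate 16, while the other 15 libraries held at most 1 read each. A list of 10 other epididymal genes, chosen after this was seen, summed to 11.02, 16.9 and 26.6 RPKM in those 3 libraries, 2.81 RPKM in eWAT replicate 2 and at most 0.337 RPKM in any other library. No fold is given, since its counts in eWAT ran from 0 to 702 reads. Its part, and that of epididymal RNA, in other genes was not tested. With these 3 libraries left out, 31 of the selected genes passed between the white depots in place of 42, 22 higher in iWAT and 9 in eWAT. Over all genes the share that passed went from 68.6% to 55.1%, with 26.7% higher in iWAT and 28.3% in eWAT. Between eWAT and BAT 40 passed as before, while the share over all genes went from 82.5% to 78.7%. Leaving libraries out also leaves fewer eWAT libraries to test.

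Extracellular and cytosolic superoxide dismutases differed from Sod2. Sod3, the secreted form, had 136, 163 and 208 RPKM in iWAT adipocytes, 33.6, 80.5 and 97.3 RPKM in eWAT adipocytes and 45.97, 58.7 and 63.7 RPKM in BAT, and every iWAT library lay above all others. The log2 fold change was 1.27 ± 0.28 (SE, adjusted p = 0.00115) for iWAT over eWAT and 0.99 ± 0.12 (SE, adjusted p = 2.54e-06) for iWAT over BAT. For eWAT over BAT it was -0.26 (adjusted p = 0.321), and without TMM the sign turned (0.64, adjusted p = 0.0203). Sod1, the copper and zinc enzyme of the cytosol, was nearly level, with 30.03, 36.5 and 37.9 RPKM in iWAT adipocytes, 28.03, 29.5 and 34.2 RPKM in eWAT adipocytes and 26.2, 33.7 and 38.8 RPKM in BAT. All 3 ranges overlapped. Relative to the bulk of genes Sod1 was lower in iWAT (-0.51, adjusted p = 3.11e-04) and eWAT adipocytes (-0.74, adjusted p = 4.01e-06) than in BAT, and both signs turned without TMM, to 0.34 (adjusted p = 0.00685) and 0.18 (adjusted p = 0.145). For iWAT over eWAT it was 0.25 (adjusted p = 0.0178), and it was not called without TMM (adjusted p = 0.0593).

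Cat had 169, 219 and 269.6 RPKM in iWAT adipocytes, 124, 159.6 and 189 RPKM in eWAT adipocytes and 147, 169 and 202 RPKM in BAT, with overlap between each pair of tissues. It was higher in iWAT than in eWAT adipocytes (0.52 ± 0.14 SE, adjusted p = 0.0051). Against BAT it was -0.23 in iWAT (adjusted p = 0.0962) and -0.72 in eWAT adipocytes (adjusted p = 2.14e-05), and without TMM both signs turned, to 0.62 (adjusted p = 1.68e-04) and 0.19 (adjusted p = 0.18).

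Of the other peroxiredoxins, Prdx5, found in mitochondria, peroxisomes and cytosol, had 56.03, 72.8 and 75.9 RPKM in iWAT adipocytes, 42.04, 49.8 and 61.3 RPKM in eWAT adipocytes and 55.5, 71.1 and 87.3 RPKM in BAT. It was higher in iWAT than in eWAT adipocytes (0.48 ± 0.11 SE, adjusted p = 0.00175). Against BAT it was -1.11 in eWAT (adjusted p = 2.37e-07) and -0.65 in iWAT adipocytes (adjusted p = 5.69e-05), and without TMM the former was -0.20 and not called (adjusted p = 0.151) and the latter turned (0.20, adjusted p = 0.121). Prdx6, the peroxiredoxin that uses glutathione, had 38, 47.9 and 52.02 RPKM in iWAT adipocytes, 16.3, 24.3 and 31.6 RPKM in eWAT adipocytes and 27.2, 33.5 and 36.7 RPKM in BAT. It was higher in iWAT than in eWAT adipocytes (0.99 ± 0.15 SE, adjusted p = 9.10e-05), with no overlap. For iWAT over BAT it was -0.08 (adjusted p = 0.416) and 0.76 without TMM (adjusted p = 3.68e-06). For eWAT over BAT it was -1.05 (adjusted p = 3.08e-06), and -0.15 and not called without TMM (adjusted p = 0.357). The row of Prdx6 overlaps a row named LOC677654 over most of its span, with mean levels of 154.5, 78.2 and 106.6 RPKM in iWAT, eWAT and BAT libraries. Prdx6-ps1, a pseudogene, had 0.104, 0.0999 and 0.0875 of the RPKM of Prdx6 in these tissues, and both counts are uncertain. About 19% of the exonic bases of Prdx5 lie under Trmt112.

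The glutathione transferases were 21 of the 48 genes tested between the white depots and 15 of the 29 that were higher in iWAT adipocytes. Of the 18 soluble forms tested, 12 were higher in iWAT and 2 in eWAT adipocytes, beside 34.1% and 34.5% of all genes. Of the 18, 8 were at least 2-fold higher in iWAT, beside 13% of all genes. The 3 microsomal forms were all higher in iWAT adipocytes. Gstz1, which isomerizes maleylacetoacetate in tyrosine breakdown, had 173, 228 and 272 RPKM in iWAT adipocytes, 31.7, 90.6 and 116 RPKM in eWAT adipocytes and 37.2, 42.96 and 48.7 RPKM in BAT. Every iWAT library lay above all others, and eWAT overlapped BAT. The log2 fold change was 1.52 ± 0.29 (SE, adjusted p = 4.79e-04) for iWAT over eWAT and 1.79 ± 0.13 (SE, adjusted p = 3.20e-09) for iWAT over BAT. For eWAT over BAT it was 0.29 (adjusted p = 0.312), and 0.77 (adjusted p = 6.41e-06) without eWAT replicates 1, 3 and 16, and it also passed without eWAT replicate 3 alone (adjusted p = 0.0401) and without TMM (1.19, adjusted p = 2.67e-04).

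Gstt1, a theta-class transferase, had 17.1, 19.6 and 21.9 RPKM in iWAT adipocytes, 2.97, 4.45 and 7.01 RPKM in eWAT adipocytes and 4.37, 4.93 and 6.72 RPKM in BAT. Its log2 fold change of iWAT over eWAT, 2.07 ± 0.20 (SE, adjusted p = 1.94e-06), was the highest of the 29 genes with full values, and that of iWAT over BAT was 1.29 ± 0.11 (SE, adjusted p = 2.59e-08). For eWAT over BAT it was -0.76 (adjusted p = 0.00227) and 0.15 without TMM (adjusted p = 0.509). Gstt2, a neighbour of the same class, had 7.605, 12.2 and 15.9 RPKM in iWAT adipocytes, 5.09, 5.51 and 6.74 RPKM in eWAT adipocytes and 5.17, 6.04 and 7.92 RPKM in BAT. It was higher in iWAT than in eWAT adipocytes (1.09 ± 0.16 SE, adjusted p = 7.07e-05). Against BAT it was 0.30 in iWAT (adjusted p = 0.114) and -0.77 in eWAT adipocytes (adjusted p = 2.06e-05). Without TMM these were 1.159 (adjusted p = 1.81e-05) and 0.14 (adjusted p = 0.34).

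Gstk1, the kappa-class form of mitochondria and peroxisomes, had 13.9, 16.8 and 21.03 RPKM in iWAT adipocytes, 3.51, 8.505 and 9.91 RPKM in eWAT adipocytes and 14.1, 16.9 and 19.6 RPKM in BAT, and all eWAT libraries lay below all others. It was 1.22 for iWAT over eWAT (adjusted p = 4.40e-04) and -1.77 for eWAT over BAT (adjusted p = 1.44e-06). For iWAT over BAT it was -0.58 (adjusted p = 4.58e-04), which turned to 0.27 without TMM. Gstm2, of the mu class, had 13.7, 15.4 and 17.2 RPKM in iWAT adipocytes, 4.17, 8.22 and 10.4 RPKM in eWAT adipocytes and 5.58, 5.95 and 8.16 RPKM in BAT. All iWAT libraries lay above all others, and the log2 fold change was 1.02 ± 0.20 (SE, adjusted p = 5.20e-04) for iWAT over eWAT and 0.67 ± 0.10 (SE, adjusted p = 1.21e-05) for iWAT over BAT. For eWAT over BAT it was -0.33 (adjusted p = 0.128) and 0.57 without TMM (adjusted p = 0.0112).

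Gstp2, of the pi class, had 19.7, 24.4 and 26.8 RPKM in iWAT adipocytes, 15.9, 17.9 and 21.6 RPKM in eWAT adipocytes and 17.6, 27.3 and 28.9 RPKM in BAT, with overlap between each pair. It was 0.38 for iWAT over eWAT (adjusted p = 0.00401), -1.07 for eWAT over BAT (adjusted p = 1.17e-06) and -0.71 for iWAT over BAT (adjusted p = 1.07e-04), and without TMM the last turned to 0.15 (adjusted p = 0.261) and that of eWAT over BAT was -0.15 and not called (adjusted p = 0.263). Its row contains that of Gstp1, the better known and more abundant form, with mean levels of 54.9, 42.8 and 55.9 RPKM, and the files split their reads in a way that is not given, so both are uncertain.

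The microsomal forms sit in membranes. Mgst1, which reduces lipid peroxides, had 134, 183 and 218 RPKM in iWAT adipocytes, 55.4, 88.2 and 115 RPKM in eWAT adipocytes and 93.3, 105 and 119 RPKM in BAT. All iWAT libraries lay above all others (1.03 ± 0.18 SE, adjusted p = 1.97e-04 for iWAT over eWAT). Against BAT it was 0.18 in iWAT (adjusted p = 0.196) and -0.83 in eWAT adipocytes (adjusted p = 1.10e-04). Without TMM these were 1.03 (adjusted p = 2.78e-07) and 0.09 (adjusted p = 0.586). Mgst3 had 39.5, 54.1 and 73.8 RPKM in iWAT adipocytes, 15.1, 24.3 and 35.4 RPKM in eWAT adipocytes and 6.72, 8.87 and 9.698 RPKM in BAT, and no 2 tissues overlapped. Its log2 fold change was 1.18 ± 0.21 (SE, adjusted p = 2.30e-04) for iWAT over eWAT, 2.099 ± 0.15 (SE, adjusted p = 5.75e-09) for iWAT over BAT and 0.94 ± 0.18 (SE, adjusted p = 1.86e-04) for eWAT over BAT.

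**Figure D3:**
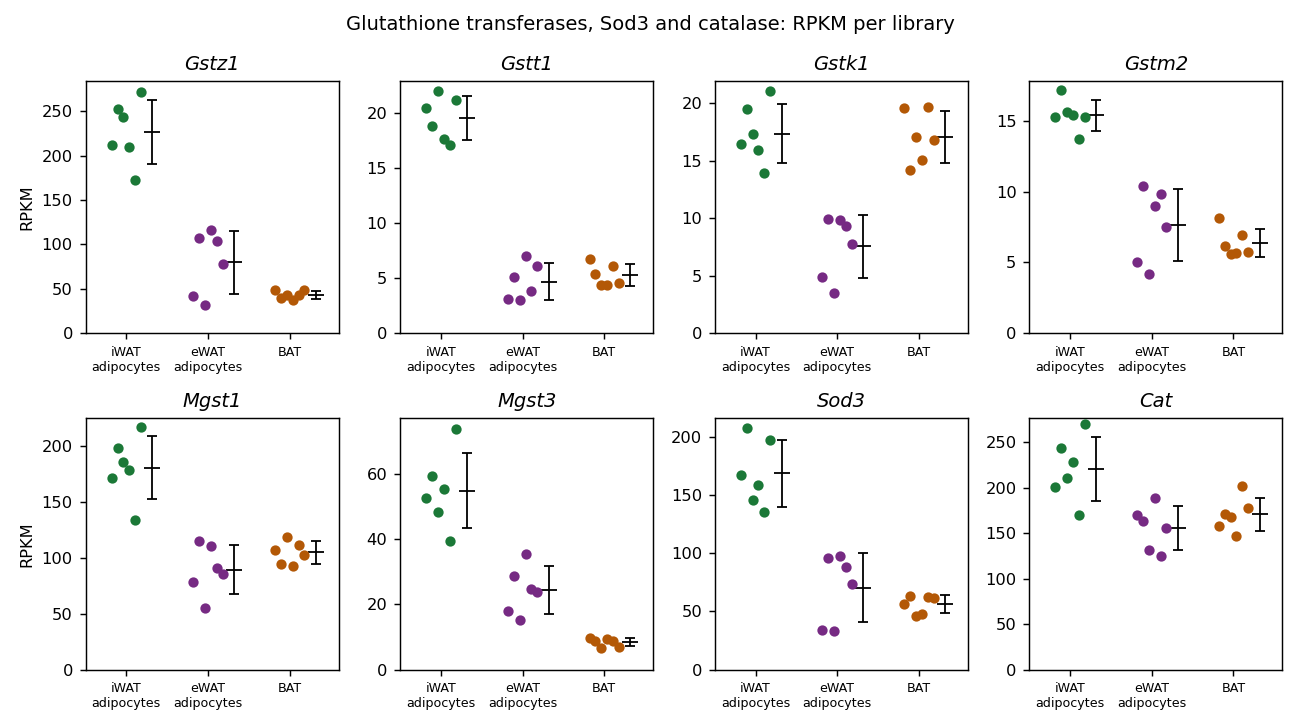
RPKM (y axis, linear from 0) of 6 glutathione transferases, Sod3 and Cat in 6 libraries per tissue. Points are libraries and bars are mean ± SD, with iWAT adipocytes in green, eWAT adipocytes in purple and BAT in brown. The iWAT mean was the highest in all 8 panels, and in those of Gstz1, Gstt1, Gstm2, Mgst1, Mgst3 and Sod3 the iWAT points lay above all others.

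Among the 25 other genes were some with a wide range between tissues. Gsta4, which detoxifies the lipid aldehyde 4-hydroxynonenal, had mean levels of 1.79 RPKM in iWAT adipocytes, 0.35 RPKM in eWAT adipocytes and 8.71 RPKM in BAT. Gsta3, of the same alpha class, had 4.84, 2.87 and 0.394 RPKM, so the 2 alpha-class genes were ordered differently. Gstm1, of the mu class, had 34.96, 53.4 and 35.5 RPKM, and Gstm5 5.97, 2.78 and 8.87 RPKM. Gsto1, of the omega class, had 24.2, 25.8 and 18.9 RPKM, and Txnrd3, a reductase best known from testis, 3.79, 2.37 and 2.68 RPKM. Gsto2, Gstm3, Gstm4, Gstm6, Gstm7, Gstt3 and Mgst2 stayed under 6 RPKM in the mean of every tissue. The mu-class genes lie side by side on chromosome 3 and are alike in sequence, and how reads matching several of them were counted is not given, so their values are uncertain.

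**Figure D4:**
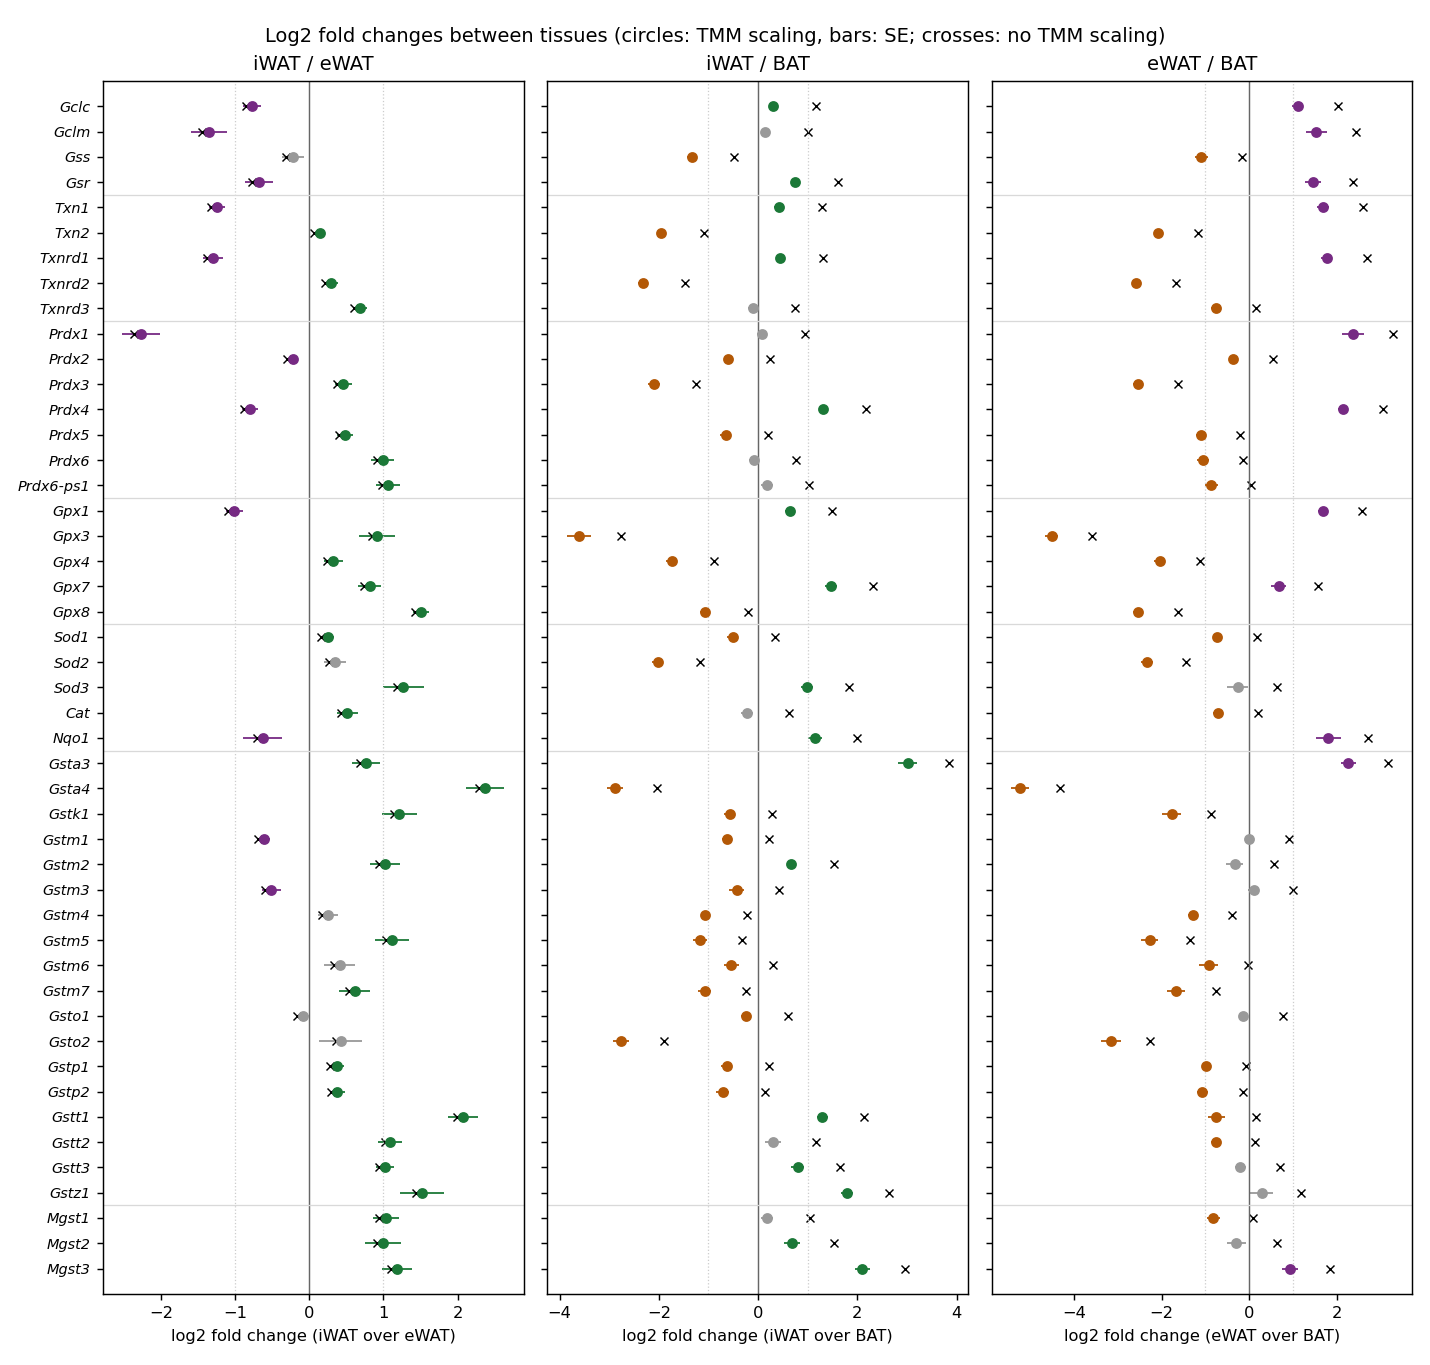
Log2 fold changes (x axis, 1 panel per comparison) of the 47 tested genes other than Gpx5, ordered by role and separated by grey lines. Circles with SE bars are edgeR values with TMM (green, purple and brown where iWAT, eWAT or BAT was higher at an adjusted p under 0.05, grey otherwise), and crosses are values without TMM. In the first panel crosses lie close to circles, while against BAT they lie to the right by about the shift of the median gene, 0.87 and 0.89.

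The 6 eWAT libraries differed among themselves more than those of the other tissues. The median coefficient of variation over genes with at least 1 RPKM was 19.5% for eWAT adipocytes, 11.8% for iWAT adipocytes and 12.4% in BAT. Of the 13 genes higher in eWAT than in iWAT adipocytes, 10 had their highest eWAT value in replicate 1 and 3 in replicate 3, and 7 had their lowest in replicate 5. Of 26 genes higher in iWAT and with at least 1 RPKM in eWAT adipocytes, 17 had their lowest eWAT value in replicate 3, and 12 each had their highest in replicates 2 and 4. Prdx1 was at 285, 170, 211, 144, 64.98 and 159 RPKM in replicates 1, 2, 3, 4, 5 and 16. Gstz1 was at 41.96, 107, 31.7, 116, 104 and 77.6 RPKM in the same order. The libraries that were low in Gstz1 were thus replicates 1 and 3. In the same order, the macrophage markers summed to 4782, 3233, 4747, 3002, 3059 and 3343 RPKM and the white adipocyte markers to 4277, 8864, 3291, 8232, 6987 and 5965 RPKM. Replicates 1 and 3 thus had the highest macrophage and lowest adipocyte sums, and their part in the values was not tested. Replicate 5 was close to replicate 4 in macrophage markers, with 64.98 RPKM of Prdx1 against 144 RPKM and 0.97 RPKM of Nqo1 against 2.68 RPKM. Gclc, Gclm, Gsr, Txn1 and Txnrd1 were also lower in replicate 5 than in replicate 4. Gpx1 (706 against 679 RPKM), Gstm1 (56.4 against 49.8 RPKM), Gstm3, Prdx2 and Prdx4 were higher in replicate 5.

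**Figure D5:**
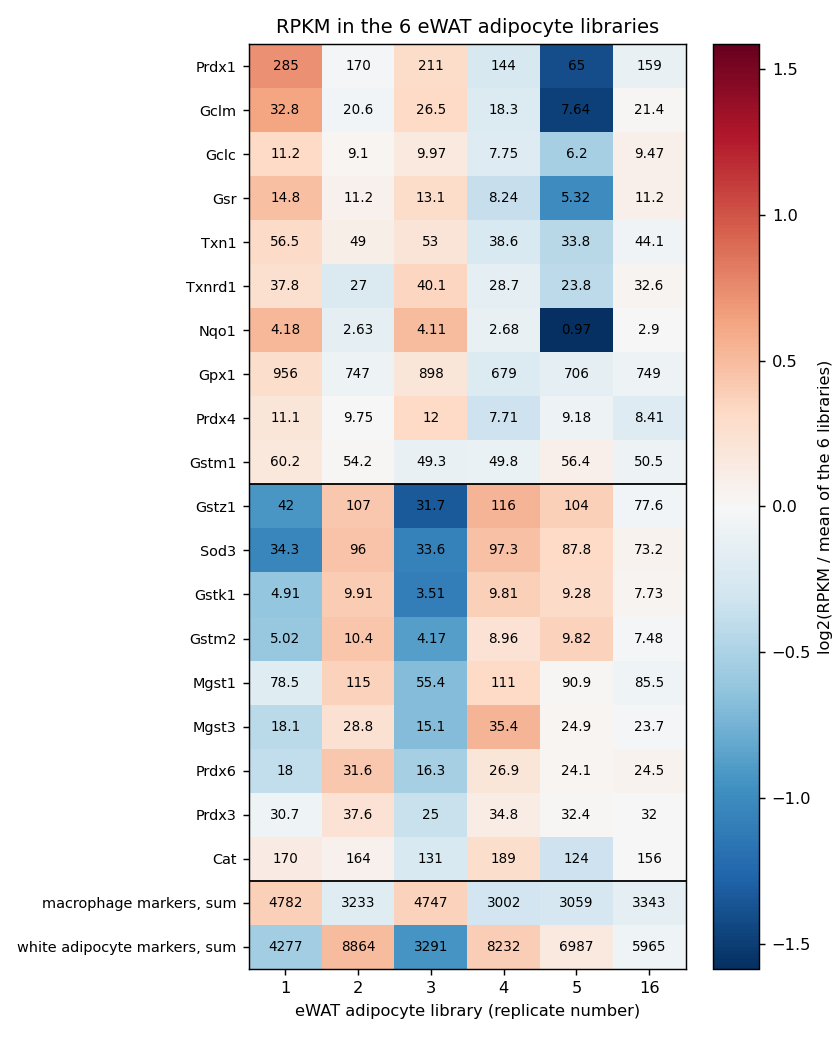
RPKM of 19 selected genes and 2 marker sums (rows) in the 6 eWAT adipocyte libraries (columns, by replicate number). Cells print the RPKM, and colour gives its log2 ratio to the mean of the 6 libraries. Replicate 5 is the darkest blue for Prdx1, Gclm, Gsr and Nqo1, at 65.0, 7.64, 5.32 and 0.970 RPKM, and replicates 1 and 3 are blue for Gstz1 and Sod3 and for white adipocyte markers.

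The sequencing lane, read from the labels, was not shared evenly. Lane 1 held 2 iWAT and 4 eWAT libraries and lane 2 held 4 iWAT and 2 eWAT libraries, while BAT ran in lanes 3 and 4, so a lane effect and a BAT effect cannot be told apart. Within lane 1, 12 of the selected genes were higher in iWAT and 6 in eWAT adipocytes, and within lane 2, 21 and 13, beside 29 and 13 in all libraries. Over all genes, 17.8% were higher in iWAT and 19.8% in eWAT within lane 1, and 25.25% and 24.8% within lane 2. For the 29 genes with full values, no sign turned within either lane. With fewer libraries, 16 of them lost their call within lane 1, and 6 lost and 2 gained it within lane 2. Cat, Gstp2, Sod1, Txn2 and Txnrd2 lost it in both lanes. Gclc, Gclm, Gpx4, Gsr, Gstk1, Gstm2, Gstz1, Nqo1, Prdx3, Prdx5 and Sod3 lost it in lane 1 only, and Gpx3 in lane 2 only. Gss and Sod2 gained it in lane 2.

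Genes around these enzymes were counted from lists. The shares over all genes to read these counts against are 34.1% higher in iWAT and 34.5% in eWAT between the white depots, 38.1% higher in iWAT and 37.2% in BAT, and 41.1% higher in eWAT and 41.4% in BAT. Counts against BAT without TMM have other shares. These are 69.4% higher in iWAT and 15.5% in BAT, and 64.6% higher in eWAT and 20.3% in BAT. Of 19 NRF2 regulators and other NRF2 targets, 13 were higher in eWAT and 2 in iWAT adipocytes, with a median log2 fold change of iWAT over eWAT of -0.85, beside 0.0014 over all genes. Akr1b8, an aldo-keto reductase, rose from 16.3 ± 1.497 RPKM in iWAT to 99.1 ± 42.2 RPKM in eWAT adipocytes (-2.59 ± 0.29 SE, adjusted p = 5.70e-06 for iWAT over eWAT), and Slc7a11, the cystine transporter, from 0.255 ± 0.0723 to 1.09 ± 0.314 RPKM (-2.09 ± 0.22 SE, adjusted p = 3.19e-06). Nfe2l1, a relative of NRF2, was higher in iWAT (0.72 ± 0.13 SE, adjusted p = 2.20e-04), as was Keap1, the inhibitor of NRF2 (0.23 ± 0.07 SE, adjusted p = 0.00874). Against BAT, 13 of the 19 were higher in iWAT and 1 in BAT (18 and 0 without TMM), and 16 were higher in eWAT and 2 in BAT (18 and 0). Hmox1, heme oxygenase, was at 68 ± 19.6 RPKM in iWAT adipocytes, 179 ± 46.3 RPKM in eWAT adipocytes and 4.31 ± 0.806 RPKM in BAT, and it is also strongly expressed by macrophages.

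Of 20 genes that supply NADPH, 9 were higher in iWAT and 6 in eWAT adipocytes (median log2 fold change 0.003), so 15 of 20 were called beside 68.6% of all genes. Me1, malic enzyme, was higher in iWAT (1.14 ± 0.27 SE, adjusted p = 0.0023) and the folate enzymes Mthfd1l (-1.21 ± 0.19 SE, adjusted p = 1.15e-04) and Mthfd2 (-0.93 ± 0.10 SE, adjusted p = 4.43e-06) in eWAT adipocytes. Against BAT, 6 were higher in iWAT and 9 in BAT (12 and 6 without TMM), and 5 were higher in eWAT and 10 in BAT (12 and 7). The turn without TMM goes with the shift of all genes given above. Tkt, transketolase, had 39.4 ± 4.34 RPKM in iWAT adipocytes, 44.3 ± 3.27 RPKM in eWAT adipocytes and 249 ± 73.2 RPKM in BAT. Nnt, which makes NADPH in mitochondria, was higher in iWAT adipocytes than in BAT (1.76 ± 0.08 SE, adjusted p = 1.75e-11). Its levels were low, with 1.61 ± 0.125 RPKM in iWAT adipocytes and 0.312 ± 0.0293 RPKM in BAT, and the substrain of the mice is not certain.

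Of 22 glutaredoxins, thioredoxin partners and repair enzymes, 11 were higher in iWAT and 8 in eWAT adipocytes (median 0.23). Srxn1, sulfiredoxin, which restores overoxidized peroxiredoxins, was higher in eWAT (-1.82 ± 0.21 SE, adjusted p = 8.01e-06 for iWAT over eWAT), with 22.9 ± 5.11 RPKM in iWAT and 81.98 ± 25.5 RPKM in eWAT adipocytes. The methionine sulfoxide reductase Msrb3 was higher in iWAT (1.47 ± 0.22 SE, adjusted p = 6.12e-05), and its mitochondrial relative Msrb2 was higher in BAT than in iWAT (-1.73 ± 0.12 SE, adjusted p = 2.95e-09) or eWAT adipocytes (-2.46 ± 0.09 SE, adjusted p = 1.25e-12). Against BAT, 10 of the 22 were higher in iWAT and 9 in BAT (19 and 2 without TMM), and 9 were higher in eWAT and 11 in BAT (12 and 5).

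Of 21 tested genes of glutathione breakdown, transport and cysteine supply, 15 were higher in iWAT and 5 in eWAT adipocytes (median 0.73). Csad, of taurine synthesis, was higher in iWAT (1.46 ± 0.20 SE, adjusted p = 3.82e-05), and the peptidases Anpep (-2.24 ± 0.16 SE, adjusted p = 2.87e-07) and Dpep2 (-2.23 ± 0.15 SE, adjusted p = 2.30e-07) in eWAT adipocytes. Oplah, which recovers glutamate from 5-oxoproline, was higher in BAT than in iWAT (-2.11 ± 0.12 SE, adjusted p = 3.85e-10) or eWAT adipocytes (-3.45 ± 0.19 SE, adjusted p = 2.01e-10), and Slc25a39, a carrier that imports glutathione into mitochondria, was higher in BAT than in iWAT adipocytes (-1.79 ± 0.11 SE, adjusted p = 8.79e-10). Against BAT, 10 were higher in iWAT and 10 in BAT (13 and 4 without TMM), and 10 were higher in eWAT and 10 in BAT (11 and 8).

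Of 15 tested genes of selenoprotein synthesis and other selenoproteins, 6 were higher in iWAT and 6 in eWAT adipocytes (median -0.06), both near the share over all genes. Against BAT, 7 were higher in iWAT and 4 in BAT (12 and 3 without TMM), and 7 were higher in eWAT and 4 in BAT (11 and 3). Sephs2, which makes selenophosphate, was higher in BAT than in iWAT (-1.76 ± 0.14 SE, adjusted p = 1.07e-08) or eWAT adipocytes (-2.27 ± 0.11 SE, adjusted p = 4.12e-11), and Sepp1, the selenium carrier of plasma, was higher in eWAT than in iWAT adipocytes (-0.94 ± 0.11 SE, adjusted p = 8.76e-06 for iWAT over eWAT). Of 11 other members of the transferase and MAPEG families, 3 were higher in iWAT and 5 in eWAT adipocytes (median -0.23). The latter were led by Hpgds, a prostaglandin D synthase (-2.37 ± 0.16 SE, adjusted p = 2.16e-07), and Alox5ap, of leukotriene synthesis (-2.16 ± 0.19 SE, adjusted p = 1.06e-06), both known from immune cells. Against BAT, 8 were higher in iWAT and 2 in BAT (10 and 1 without TMM), and the same counts held for eWAT and BAT.

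Of 19 tested oxidant-producing enzymes, 5 were higher in iWAT and 11 in eWAT adipocytes (median -0.33). The phagocyte oxidase genes Cybb (-2.41 ± 0.16 SE, adjusted p = 2.06e-07 for iWAT over eWAT) and Ncf1 (-2.61 ± 0.21 SE, adjusted p = 5.44e-07) led in eWAT, beside the macrophage sums given above. The amine oxidases Maob (1.4998 ± 0.30 SE, adjusted p = 6.30e-04) and Aoc3 (1.42 ± 0.29 SE, adjusted p = 8.28e-04) led in iWAT adipocytes. Against BAT, 10 were higher in iWAT and 5 in BAT (13 and 2 without TMM), and 11 were higher in eWAT and 7 in BAT (12 and 3).

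Nothing in the labels says that same-numbered libraries came from 1 mouse, and p-values measure the spread between these libraries.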

How the data were processed

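RNA-seq libraries were grouped by the labels into iWAT adipocytes, eWAT adipocytes and BAT. Per the labels, reads were aligned to mm9, and the submitters' processing notes name cutadapt 1.16 and HISAT2 2.1.0. The read counter, its annotation and its handling of multi-mapping reads and strand are not given in the sources used here. The authors deposited, per library, raw read counts and RPKM values for each row. The row with the highest mean RPKM stood for a symbol. Raw counts were tested with edgeR 4.0.16 (TMM, quasi-likelihood, R 4.3.3) over all rows with a mean of at least 10 reads in the comparison, each pair of tissues fitted alone, with two-sided p-values and Benjamini-Hochberg adjustment over all genes. The script was tested on simulated data. Genes with full values had a mean of at least 10 RPKM in a tissue and a called change of at least 2-fold, with 11 core genes added. Other lists are named by at most 2 genes per direction, those with the largest called change and a mean of at least 1 RPKM. The members and lists were chosen with earlier results of these data known. Alternatives were DESeq2 1.42.0, limma 3.58.1 on log2(RPKM + 0.1) and log2(RPKM + 1), other scalings and filters, summed rows, lane, a replicate block and libraries left out. Read totals per library were 24655056 to 42518483, and counting precision is limited by these. Titles carry numbers that may name mice, which the labels do not state.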

Additional observations from a re-analysis of the deposited data

Results flagged for a closer look

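In 5 of the 129 groups of 6 libraries tested, 1 library lay far from the other 5 by Dixon's test, where chance alone gives about 6.45. In iWAT adipocytes this was replicate 5 each time. It had 12.7 RPKM of Gpx4 against 16.5 to 17.1 RPKM in the other libraries, and 56.0 RPKM of Prdx5 against 69.1 to 75.9 RPKM. It also had 46.6 RPKM of Gstp1 against 54.7 to 59.1 RPKM, and 3.09 RPKM of Gstm4 against 3.90 to 4.32 RPKM. In BAT, replicate 16 had 0.902 RPKM of Gsto2 against 1.21 to 1.38 RPKM in the others.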

How the results depend on the processing

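Called genes with each library left out numbered 39 to 44 for iWAT against eWAT (27 to 31 higher in iWAT, 12 to 14 in eWAT, at least 2-fold 9 to 16 and 5 to 6), 38 to 41 for iWAT against BAT (16 to 19 and 22 to 24, 7 to 8 and 12 to 13) and 40 to 41 for eWAT against BAT (13 to 14 and 27 to 28, 11 to 12 and 16 to 19). Same-numbered libraries did not deviate together on average (mean r 0.008, -0.0163 and 0.0087). Between iWAT and eWAT, single same-numbered pairs ran from -0.27 to 0.508, and pairs of different numbers from -0.487 to 0.491. With a replicate block 39, 35 and 40 genes were called, beside 65.4%, 63.5% and 75.4% of all genes. Between the white depots, lane 1 alone gave 18 called genes (12 higher in iWAT, 6 in eWAT, at least 2-fold 6 and 3), with fewer libraries. Over all genes, 37.5% were called within lane 1. limma on log2(RPKM + 1) gave 8 at least 2-fold higher in iWAT. Without eWAT replicates 1, 3 and 16, 6 and 3 were at least 2-fold, beside 1783 and 1904 of 19455 genes over all. For iWAT against BAT, no TMM scaling gave 31 and 10 (19 and 7 at least 2-fold), limma with 0.1 gave 25 and 13 (15 and 8) and limma with 1 gave 25 and 13 (7 in BAT). For eWAT against BAT these gave 22 and 13 (10 in BAT), 11 in BAT and 10 in BAT. Shares over all genes without TMM were 69.4% in iWAT and 15.5% in BAT, and 64.6% in eWAT and 20.3% in BAT. With limma at 0.1 they were 59.0% in iWAT and 20.4% in BAT, and 54.7% in eWAT and 26.2% in BAT. With limma at 1 they were 59.0% and 20.4%, and 54.6% and 26.2%, so all genes moved towards the white depots here too.

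Signs turned for small differences. Without TMM, iWAT over BAT became 0.62 for Cat, 0.27 for Gstk1, 0.15 for Gstp2, 0.20 for Prdx5, 0.76 for Prdx6 and 0.34 for Sod1. With limma at 0.1 and 1 it was 0.36 and 0.36 for Cat, 0.024 and 0.023 for Gstk1, 0.52 and 0.50 for Prdx6 and 0.099 and 0.096 for Sod1, and Prdx6 was 0.0175 with no filter. Without TMM, eWAT over BAT became 0.19 for Cat, 0.57 for Gstm2, 0.15 for Gstt1, 0.14 for Gstt2, 0.088 for Mgst1, 0.18 for Sod1 and 0.64 for Sod3. With limma it was 0.19 and 0.18 for Gstm2 and 0.20 and 0.20 for Sod3. Without eWAT replicates 1, 3 and 16, iWAT over eWAT was 0.0077 for Gss, and eWAT over BAT 0.048 for Gstm2 and 0.18 for Sod3. The cause was not tested, other than that omitting TMM moves all genes together.

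Calls near the threshold moved with 1 library. Between the white depots, leaving out 1 library ended the call of Nqo1 for 10 of 12 libraries, of Txn2 for 9 and of Gpx4 for 7, and made that of Sod2 for 5. Gss was called without eWAT replicate 5 (adjusted p = 0.015 by edgeR). Against BAT in iWAT adipocytes, Cat (0.0279) and Gstt2 (0.0258) were called without iWAT replicate 16, Mgst1 (0.0299) without iWAT replicate 5, and Gclm without iWAT replicate 5 (0.0459) or BAT replicate 5 (0.0362). Gstz1 was called between eWAT adipocytes and BAT without eWAT replicate 3 (0.0401). Without eWAT replicates 1, 3 and 16, Gpx3, Gpx4, Gsr, Gstp2, Nqo1, Sod1, Txn2 and Txnrd2 were not called between the white depots.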
